A study of Mus musculus with 6 samples.

Results

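The chromosome 6 block is a run of neighbouring genes between 24.5 and 39.815 Mb of mouse chromosome 6 whose RNA levels differed together between libraries of 2208L, a mouse mammary tumour carried in Balb/c mice. Its members were the protein-coding genes of the deposited count table that start in this interval, without Mest, Parp12, Zc3hav1 and genes of the respiratory chain and the ribosomes. The rule gave 104 members of the 54532 genes in the table, and 67 of them passed the filter on low counts. Because the interval was picked from the difference between each library and the mean of all 6, the values of that difference are given as a description and carry no test.

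RNA sequencing compared 3 CTC libraries, made from circulating tumour cells that were propagated after recovery from peripheral blood, with 3 PT libraries, made from cells of dissociated primary tumours after enrichment for tumour cells. All are labelled as biological replicates of cancer cells with no treatment, and each PT library is given as the match of the CTC library of its number, from the same 2208L-bearing Balb/c mouse. CTC cells alone are described as propagated, so propagation and origin from blood cannot be told apart. Neither the age of the mice, nor the means of enrichment, nor whether the propagated cells are 1 clone is stated.

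Neighbouring genes share a stretch of DNA and its chromatin, but each has its own promoter, and their products often have unrelated tasks. The interval, most of whose counterpart lies on human chromosome 7, holds such a mixed set. It includes the kinase gene Braf, the hedgehog signal transducer Smo, the transcription factor gene Nrf1, the telomere-binding protein gene Pot1a, the trafficking genes Copg2 and Exoc4, the actin regulator Cald1, and clusters of digestive carboxypeptidases, sperm hyaluronidases and aldo-keto reductases. DNA was not measured in these samples.

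Library totals ran from 23845953 to 27897320 counts, so that 3 counts, the limit set by a count of 0, correspond to 0.108 to 0.126 CPM (counts per 1000000 counts of the library; the limit covers counting error only). The epithelial genes Krt8, Krt18, Epcam and Cdh1 had sums of 4820 CPM in CTC replicate 1, 3130 in CTC replicate 2, 2100 in CTC replicate 3 and between 3630 and 4160 in PT. The 8 leukocyte genes reached at most 19.9 CPM, with Adgre1 and Ly6g among those at 0 in all libraries, and the 4 endothelial genes at most 1.9 CPM. The leukocyte maximum, in CTC replicate 2, was all Csf1r (488 reads). The sum of 7 fibroblast genes was 9.0 CPM in CTC replicate 1, 58.8 in CTC replicate 2, 176 in CTC replicate 3 and between 17.8 and 72.4 CPM in PT, with Lum at 0. A different gene led this sum in each CTC library. It was Pdgfra in CTC replicate 1 (237 reads), Dcn in CTC replicate 2 (796, with Col3a1 at 36) and Col3a1 in CTC replicate 3 (3184, with Dcn at 10).

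Members were low in CTC replicates 1 and 2 and high in CTC replicate 3 and the PT libraries. The median over the 67 tested members of log2 CPM minus the mean of all 6 libraries was -0.50 in CTC replicate 1, -0.34 in CTC replicate 2 and 0.29 in CTC replicate 3. In PT replicates 1, 2 and 3 it was 0.40, 0.12 and 0.13. Over all 13874 genes tested the same median lay between -0.031 and 0.041 in every library. Single chromosomes could lie farther from 0 than all genes together. The CTC replicate 1 median of protein-coding genes ranged from -0.40 on chromosome 7 (914 genes) to 0.38 on chromosome 13 (443 genes). Chromosome 6 as a whole (587 genes) was at -0.28, -0.17 and 0.026 in CTC replicates 1, 2 and 3. In PT replicates 1, 2 and 3 it was at -0.049, 0.21 and 0.28. Chromosome 7 was at -0.165 in CTC replicate 2, -0.028 in CTC replicate 3 and 0.41 in PT replicate 1. The middle 50% of members, between the quartiles, lay from -1.09 to -0.22 in CTC replicate 1, from -0.58 to -0.17 in CTC replicate 2 and from 0.043 to 0.49 in CTC replicate 3. Within CTC the fibroblast sums were also lowest in replicate 1 and highest in replicate 3, though led by a different gene in each library. The epithelial sums were highest in replicate 1 and lowest in replicate 3. The part of both sums in the result was not tested. In such bulk samples, fewer cells that express a gene and less RNA per cell cannot be told apart.

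**Figure D1:**
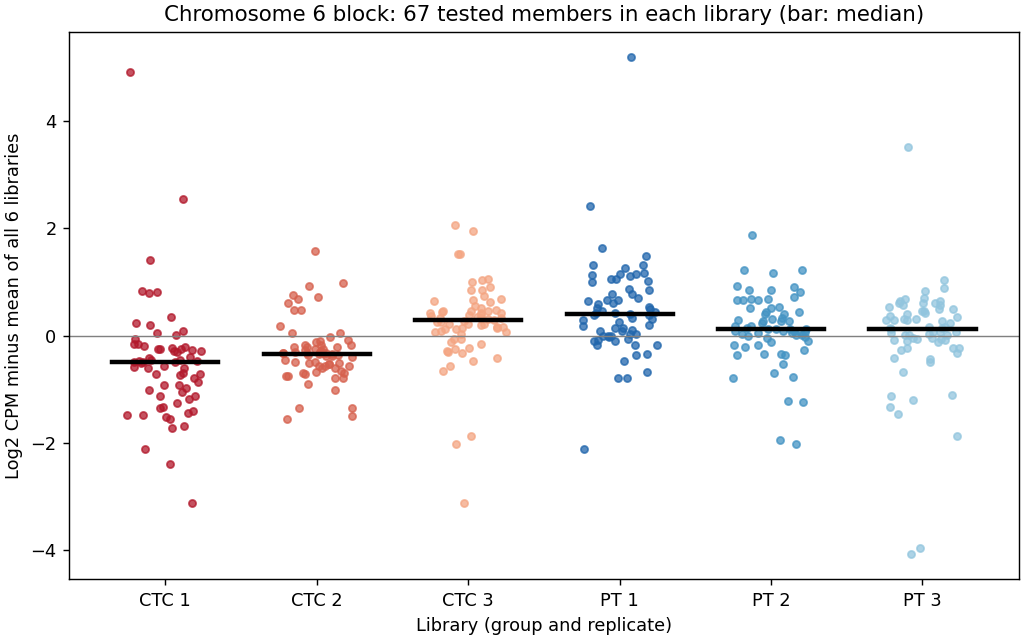
Each point is 1 of the 67 tested members, plotted as its log2 CPM in a library minus its mean over all 6 libraries (vertical axis) for each library (horizontal axis), and bars are medians. The bars lie at -0.50 and -0.34 in CTC replicates 1 and 2 and above 0 in the other 4 libraries, while single members spread over several log2 units.

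Most members shared this order, though not all. CTC replicate 1 was below the mean of all 6 for 55 members, as it was for 47.5% of all genes tested, and CTC replicate 2 also for 55 (48.8% of all genes). CTC replicate 3 was above it for 51 members (52.7% of all genes), and PT replicates 1, 2 and 3 were for 49, 46 and 42 (48.1%, 52.3% and 50.3% of all genes). A total of 41 members (61.2%) had CTC replicates 1 and 2 below and CTC replicate 3 above the mean, against 16.9% of all genes. CTC replicate 3 was above both other CTC libraries for 50 members (74.6%, against 34.4% of all genes). CTC replicate 1 was the lowest of the 6 libraries for 35 members, against 22.6% of all genes, and PT replicate 1 the highest for 22, against 20.4%. Over the 6 libraries, the median correlation of a member with the median of the other members was 0.69 (n = 6 libraries, which all members share), highest for Gcc1, a Golgi coiled-coil protein gene, at 0.96, and negative for 10 members. It was over 0.5 for 50 members (74.6%) and for 22.6% of the 11952 other protein-coding genes tested. These counts follow from the choice of the interval.

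In the CTC libraries the medians had the same signs at high and low levels, on both strands and along the interval, while the PT medians ranged from 0.0031 to 0.61. The 34 members with a mean of at least 5 log2 CPM had medians of -0.54, -0.32 and 0.31 in CTC replicates 1, 2 and 3, and the 33 below that level had -0.42, -0.45 and 0.25. In PT replicate 1 they were 0.22 and 0.61. Members on the plus and the minus strand had medians of -0.53 and -0.50 in CTC replicate 1 and of 0.0031 and 0.17 in PT replicate 3. In 3 stretches of equal length from the start of the interval, the CTC replicate 1 median was -0.46, -0.55 and -0.58, with 19, 22 and 26 tested members, and the PT replicate 3 median was 0.0069, 0.14 and 0.27. Of the 67 tested members, 40 overlap another gene of the table, whose reads cannot be told apart where the strand is unknown, and the 27 without such an overlap had medians of -0.70, -0.32 and 0.21 in CTC.

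Among members whose lowest or highest library was CTC replicate 1, the one farthest from the mean, the most abundant were Snd1, Nup205, Klhdc10 and Arf5, and it was the lowest for all 4. Snd1 encodes a nuclease-domain protein of RNA processing (ENSMUSG00000001424, chromosome 6, 28475139 to 28935162, GRCm38) and was at 295, 392 and 535 CPM in the libraries CTC replicate 1, 2 and 3 and at 1160.2, 809 and 512 CPM in PT replicate 1, 2 and 3. CTC replicates 1 and 2 had the lowest values, and CTC replicate 3 was barely above PT replicate 3, so the groups overlapped. Nup205, a scaffold nucleoporin of the inner ring of the nuclear pore (ENSMUSG00000038759, chromosome 6, 35177421 to 35247596, GRCm38), was at 141, 203 and 321 CPM in the CTC libraries and 263, 251 and 355 CPM in those of PT. CTC replicates 1 and 2 lay below every PT library and CTC replicate 3 lay among them. Klhdc10, a kelch protein that works with a ubiquitin ligase (ENSMUSG00000029775, chromosome 6, 30401868 to 30455179, GRCm38), was at 88.9, 154 and 350.0 CPM in the CTC libraries and 299, 305 and 285 CPM in those of PT. Its PT libraries were nearly equal, while the CTC libraries included the lowest, CTC replicate 1, and the highest, CTC replicate 3. Arf5, a small GTPase of the Golgi (ENSMUSG00000020440, chromosome 6, 28423560 to 28426602, GRCm38), was at 87.8, 149 and 165 CPM in the CTC libraries and 417, 347 and 164 CPM in those of PT. PT replicate 3 was level with CTC replicate 3, and PT replicates 1 and 2 stood well above all CTC libraries. The spans of Snd1 and Arf5 overlap those of Lrrc4 and Gcc1.

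The promoters of these 4 members are shown because they were the most abundant of those whose lowest or highest library was CTC replicate 1. Each runs from 250 bases before to 50 bases after the RefSeq start (GRCm38.p6), and capitals mark matches on either strand to 1 of 4 motifs: the TATA box TATAAA, the CCAAT box CCAAT, the GC box GGGCGG and TGCGCA, a piece of the motif bound by the factor NRF1. No match overlaps another. The RefSeq start of Snd1 lies inside the span that the deposited table gives for the gene.
Snd1, chr6:28480098-28480397, plus strand: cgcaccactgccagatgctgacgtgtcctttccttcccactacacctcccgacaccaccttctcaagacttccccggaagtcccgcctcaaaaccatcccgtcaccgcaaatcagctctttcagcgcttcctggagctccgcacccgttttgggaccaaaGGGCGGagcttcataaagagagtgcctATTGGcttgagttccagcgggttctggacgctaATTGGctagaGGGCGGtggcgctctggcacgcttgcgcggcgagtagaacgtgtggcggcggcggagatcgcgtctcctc
Nup205, chr6:35177366-35177665, plus strand: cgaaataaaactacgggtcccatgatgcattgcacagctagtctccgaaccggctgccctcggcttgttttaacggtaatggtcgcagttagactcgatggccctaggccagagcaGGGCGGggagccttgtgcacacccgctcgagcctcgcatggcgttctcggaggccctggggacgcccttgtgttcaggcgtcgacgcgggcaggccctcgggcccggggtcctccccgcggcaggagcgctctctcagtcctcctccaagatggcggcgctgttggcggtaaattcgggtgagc
Klhdc10, chr6:30401605-30401904, plus strand: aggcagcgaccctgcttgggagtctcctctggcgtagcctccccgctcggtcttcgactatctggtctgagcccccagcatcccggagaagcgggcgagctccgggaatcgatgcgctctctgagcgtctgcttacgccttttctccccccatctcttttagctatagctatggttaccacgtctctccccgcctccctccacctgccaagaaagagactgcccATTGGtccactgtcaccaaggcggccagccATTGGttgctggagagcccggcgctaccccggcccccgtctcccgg
Arf5, chr6:28423354-28423653, plus strand: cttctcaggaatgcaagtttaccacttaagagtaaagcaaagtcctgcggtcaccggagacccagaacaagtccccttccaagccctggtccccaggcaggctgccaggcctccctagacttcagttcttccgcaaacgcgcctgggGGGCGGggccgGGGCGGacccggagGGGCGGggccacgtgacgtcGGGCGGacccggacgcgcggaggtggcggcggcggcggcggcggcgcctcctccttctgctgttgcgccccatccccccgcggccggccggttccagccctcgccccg
Snd1 holds 2 GC boxes and 2 CCAAT boxes, Nup205 holds 1 GC box, Klhdc10 holds 2 CCAAT boxes and Arf5 holds 4 GC boxes. Thus the 4 promoters have no single motif of these in common.

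The shares of promoters with each motif were counted over the block and over other genes, without a test of the difference. Of the 67 tested members, 65 matched the RefSeq table by symbol, with 82 promoters. A GC box was in 67.1% of them and in 63.0% of the 12125 promoters of tested protein-coding genes, against 35.7% of all 32851 promoters of the table. For the CCAAT box the shares were 29.3%, 38.1% and 37.4%, for TATAAA 7.32%, 6.77% and 13.6%, and for TGCGCA 14.6%, 13.7% and 7.76%. The median GC content of member promoters was 60.5%, against 61.0% for tested protein-coding genes.

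**Figure D2:**
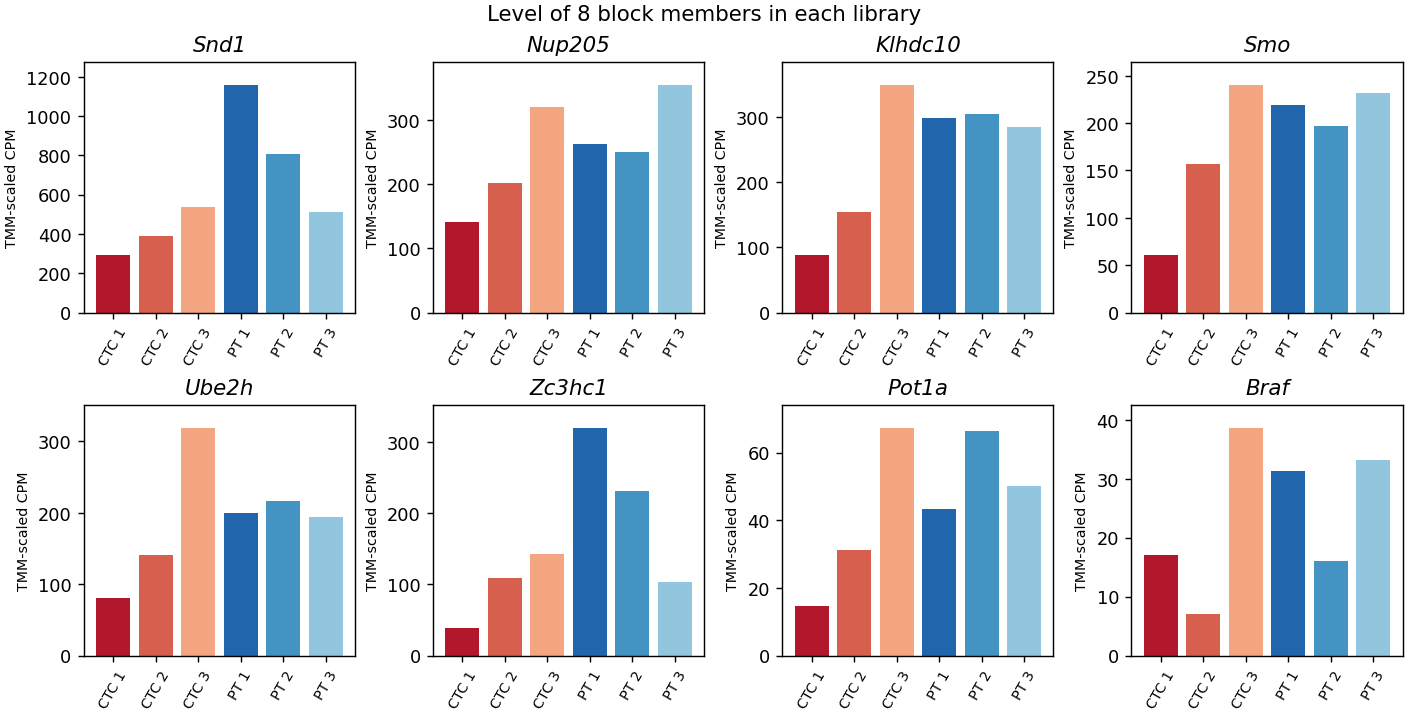
Bars give the TMM-scaled CPM (vertical axis, linear from 0, own scale for each gene) of 8 members in the 3 CTC and 3 PT libraries, 1 bar per library. In 7 of the 8 genes CTC replicate 1 is the lowest bar, for example 60.6 CPM for Smo, and for Braf it is CTC replicate 2 at 7.0 CPM. The 8 genes are a selection: over all 67 tested members CTC replicate 1 was the lowest for 35.

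Both tested signalling genes ranged widely within CTC. Smo, the seven-pass membrane protein that passes on the hedgehog signal, was at 60.6, 157 and 241 CPM in the libraries CTC replicate 1, 2 and 3 and at 219, 197 and 232 CPM in PT replicate 1, 2 and 3. CTC replicate 1 stood far under all other libraries and CTC replicate 3 was the highest of all. Braf, the RAF kinase that activates MEK in the MAPK cascade, was at 17.1, 7.0 and 38.6 CPM in the CTC libraries and 31.3, 16.1 and 33.2 CPM in those of PT. Here CTC replicate 2 was the lowest and CTC replicate 3 again the highest. These were the only 2 of the 9 signalling members that passed the filter. Lep, which encodes leptin, and Gpr37, a receptor gene of the nervous system, had 0 counts in all libraries.

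The tested genes of protein turnover were low in CTC replicate 1, as most members were. These 4, Klhdc10, Ube2h, Zc3hc1 and Mkrn1, had a median of -1.23 there, and CTC replicate 1 was the lowest library for each. It was also the lowest for 35 of all 67 tested members and for 22.6% of all genes. Ube2h, a ubiquitin-conjugating enzyme, was at 80.6, 141 and 319 CPM in the CTC libraries and 199, 217 and 194 CPM in those of PT, with CTC replicate 3 the highest and the PT libraries close together. Zc3hc1, an F-box-like protein of the nuclear envelope, was at 38.9, 109 and 142 CPM in the CTC libraries and 319.7, 231 and 104 CPM in those of PT. Its PT libraries also spread widely, and PT replicate 3 lay between CTC replicates 1 and 2. Mkrn1, a ubiquitin ligase, was at 36.1, 39.9 and 44.9 CPM in the CTC libraries and 78.9, 71.2 and 42.6 CPM in those of PT, and PT replicate 3 fell among the CTC libraries.

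Members of trafficking and gene regulation varied in which CTC library was the lowest. For all 3 of the nuclear pore it was CTC replicate 1, as it was for 35 of all 67 tested members. Copg2, a subunit of the COPI coat that returns proteins to the endoplasmic reticulum, was at 41.6, 59.0 and 86.4 CPM in the CTC libraries and 78.8, 82.8 and 76.8 CPM in those of PT; its span overlaps that of Mest. Exoc4, a subunit of the exocyst, which tethers vesicles to the plasma membrane, was at 38.8, 42.7 and 59.8 CPM in the CTC libraries and 52.0, 60.3 and 83.0 CPM in those of PT. In both genes CTC replicate 1 was the lowest library and CTC replicate 3 the highest of CTC, while the PT libraries of Copg2 varied little. Tnpo3, an import receptor for splicing factors, was at 106, 115 and 182 CPM in the CTC libraries and 144, 158 and 187 CPM in those of PT, with CTC replicate 3 level with the highest PT library. Trim24, a chromatin reader and coregulator, was at 21.6, 21.6 and 50.8 CPM in the CTC libraries and 28.3, 33.0 and 49.3 CPM in those of PT, where CTC replicates 1 and 2 were equal and lowest. Hipk2, a nuclear kinase of stress responses, was at 36.7, 46.6 and 106 CPM in the CTC libraries and 56.0, 55.9 and 37.4 CPM in those of PT. Its CTC replicate 3 was the highest library by far, and PT replicate 3 was next to CTC replicate 1. Nrf1, which drives nuclear genes of mitochondria, had the narrowest range of these at 47.4, 63.6 and 68.8 CPM in the CTC libraries and 66.3, 70.7 and 78.2 CPM in those of PT. Kdm7a, a histone demethylase, was at 2.56, 3.25 and 32.7 CPM in the CTC libraries and 11.6, 8.46 and 13.2 CPM in those of PT, with CTC replicate 3 far above every other library. The RNA-binding proteins Luc7l2 and Rbm28 were highest in PT replicate 3 and CTC replicate 3, at 135 and 122 CPM, and lowest in CTC replicates 2 and 1, at 61.7 and 65.7 CPM. Tmem209, a nuclear envelope protein, was at 37.9, 51.4 and 109 CPM in the CTC libraries and 82.3, 106 and 92.1 CPM in those of PT. All 13 tested members listed under transcription, chromatin and RNA, Fam71f1 and Cyren among them, were below the mean in CTC replicate 2, as were 55 of all 67. Of the 13, 12 were above it in CTC replicate 3, as were 51 of all 67.

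Among genes of telomeres and cilia, Pot1a and Ttc26 had the order of the member medians within CTC. Pot1a, which binds single-stranded telomere DNA in the shelterin complex, was at 14.8, 31.1 and 67.3 CPM in the CTC libraries and 43.2, 66.4 and 50 CPM in those of PT. Ttc26, of the intraflagellar transport machinery, was at 5.64, 8.71 and 31.8 CPM in the CTC libraries and 18.9, 20.0 and 20.4 CPM in those of PT. In both, CTC replicate 1 was the lowest library and CTC replicate 3 the highest. Cep41, a centrosome protein linked to cilia, was at 19.8, 19.3 and 32.4 CPM in the CTC libraries and 23.4, 24.1 and 23.6 CPM in those of PT, with little spread outside CTC replicate 3. Ccdc136, a coiled-coil protein, was at 13.8, 9.55 and 15 CPM in the CTC libraries and 35.5, 17.2 and 15.1 CPM in those of PT, and its CTC libraries were all below those of PT.

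Among abundant cytoskeletal members, Wasl departed from the order of the others. Cald1, which encodes caldesmon, an actin- and tropomyosin-binding protein, was at 424, 325 and 658 CPM in the CTC libraries and 497, 891 and 795 CPM in those of PT, with CTC replicates 1 and 2 the lowest. Wasl, the N-WASP protein that starts branched actin, was at 476, 548 and 645 CPM in the CTC libraries and 308, 562 and 790.3 CPM in those of PT, and here PT replicate 1 was the lowest. Mtpn, a regulator of actin capping, was at 284, 211 and 405 CPM in the CTC libraries and 297, 312 and 314 CPM in those of PT, where the 3 PT libraries lay between CTC replicates 1 and 3. Mkln1, a kelch protein of cell spreading that overlaps Mkln1os, was at 60.5, 56.7 and 125 CPM in the CTC libraries and 85.9, 110.0 and 142 CPM in those of PT, with CTC replicates 1 and 2 the lowest. Per kilobase of gene, Atp6v1f, Calu and Arf5 had the highest mean levels of the block at 158, 138 and 116 CPM per kb. Calu, a calcium-binding protein of the secretory pathway, was at 527, 387 and 751 CPM in the CTC libraries and 846, 708 and 656 CPM in those of PT, and Atp6v1f, a subunit of the proton pump of lysosomes, at 96.6, 147 and 131 CPM in the CTC libraries and 230.2, 252 and 150.2 CPM in those of PT. For Atp6v1f every CTC library was below every PT library.

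Metabolic members were mixed. Impdh1, of guanine nucleotide synthesis, was at 86.2, 121 and 118 CPM in the CTC libraries and 310.5, 139.6 and 141 CPM in those of PT, with all CTC libraries below all PT libraries. Chchd3, of the mitochondrial inner membrane, was at 65.5, 99.7 and 125 CPM in the CTC libraries and 111, 191 and 167 CPM in those of PT, and the highest were PT replicates 2 and 3. The aldose reductase gene Akr1b3 was at 173, 287 and 123 CPM in the CTC libraries and 273, 134 and 55.0 CPM in those of PT, highest in CTC replicate 2 and lowest in PT replicate 3, and Akr1b8 at 48.7, 52.4 and 52.7 CPM in the CTC libraries and 92, 35.8 and 21.4 CPM in those of PT. These reductases have close paralogs next to each other, so reads may be shared between copies.

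In CTC replicate 1, 12 tested members lay above the mean, led by Cpa4, Flnc, Strip2, Clec2l and Fam71f2. Cpa4, a carboxypeptidase, was at 37.2, 1.96 and 0.704 CPM in the CTC libraries and 0.805, 0.773 and 0 CPM in those of PT, and CTC replicate 1 held nearly all of its reads. Flnc, filamin C of muscle, was at 44.9, 10.5 and 1.8 CPM in the CTC libraries and 41.0, 12 and 0.373 CPM in those of PT, so its high libraries were replicate 1 of both groups. Strip2, Clec2l and Fam71f2 reached at most 1.7, 0.834 and 0.604 CPM, and for Clec2l and Fam71f2 all CTC libraries were above all PT libraries. Among the largest deviations there in the block's direction, Ptn, the growth factor pleiotrophin, was at 0, 0.334 and 0 CPM in the CTC libraries and 25.5, 1.24 and 1.20 CPM in those of PT, which rest on 8 reads over all of CTC and on 665, 29 and 29 reads in the PT libraries. Rab19, a small GTPase, had 1 count in CTC replicate 1 and at most 62, in CTC replicate 3. Tmem229a had 0 counts in CTC replicate 1 and in PT replicate 1 and at most 93, in PT replicate 3. Thus Rab19, Tmem229a, Strip2, Clec2l and Fam71f2 rest on few reads, while most reads of Cpa4 are in CTC replicate 1 and most of Ptn in PT replicate 1.

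Of the 37 members that did not pass the filter, 6 had no count in any library, 24 (these 6 among them) had at most 10 counts in total and none had more than 57 in a library. Most genes of the tissue-restricted group were among them: Cpa4 alone of its 17 members was tested. The sperm hyaluronidase gene Spam1 had 0 counts, Cpa1 had 4 in total and Stra8, a gene of meiosis, had 4 in total.

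Genes of the interval that the rule leaves out had medians in the same order of CTC libraries as the members. The 22 tested ones had medians of -0.56, -0.49 and 0.43 in CTC replicates 1, 2 and 3 and of -0.19, 0.15 and 0.22 in PT. The 5 lincRNA and antisense genes, 6530409C15Rik, Rncr4, Lncpint, Mkln1os and 1810058I24Rik, were all below the mean in CTC replicates 1 and 2, with medians of -0.78 and -0.56. Of all genes, 47.5% and 48.8% were below it there. In CTC replicate 3, 2 of the 5 were below the mean and the median was 0.85. Few reads carry most of these values. In CTC replicate 1 the levels were 0.426, 0.497, 0.71, 0.32 and 25.8 CPM, in the order named. The strand of the reads is not stated, so an antisense gene such as Mkln1os cannot be told apart from reads of Mkln1 where they overlap. The 5 pseudogenes, whose reads may come from parent genes elsewhere, had medians of 0.10, 0.093 and -0.019 in CTC. Mest, an imprinted gene, went the other way at 11.9, 5.67 and 0.430 CPM in the CTC libraries and 0.230, 1.42 and 0.581 CPM in those of PT. Parp12 and Zc3hav1, antiviral genes induced by interferon, were highest in CTC replicate 3 at 243 and 189 CPM, against at most 76.4 and 126 CPM elsewhere.

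The edges of the interval were not the edges of the pattern. Just inside, the first tested members Wasl, Tmem229a and Pot1a deviated by -0.16, -2.11 and -1.45 in CTC replicate 1, and the last ones, Mkrn1, Adck2 and Braf, by -0.47, -1.48 and -0.27. Just outside, Aass, Fezf1 and Cadps2 before the interval deviated by -3.72, -5.17 and 1.93, and Agk, E330009J07Rik and Ssbp1 after it by -0.76, 0.12 and -0.70. The nearest 10 tested protein-coding genes before the interval had medians of -1.20, -1.43 and 0.94 in CTC replicates 1, 2 and 3, and the nearest 10 after it had -1.05, -0.86 and 0.82. Several had hardly any reads in CTC replicate 1, among them Aass at 0, Ptprz1 at 0.1065 and Mgam at 0.0355 CPM. Of those with a mean of at least 5 log2 CPM, Fam3c (-1.30, -1.53 and 1.07) and Casp2 (-0.75, -0.12 and 0.40) had the signs of the member medians in CTC. Lsm8 (-0.51, 0.13 and 0.076) and Ing3 (-0.23, 0.18 and -0.11) did not. Over all 45 tested genes before the interval the medians were smaller, at -0.19, -0.37 and 0.42. In bins of 10 Mb along the chromosome, the CTC replicate 1 median was -0.50 between 40 and 50 Mb (42 genes) and 0.26 between 50 and 60 Mb (52 genes). It was also -0.52 between 110 and 120 Mb and -0.57 between 120 and 130 Mb. The CTC replicate 3 median was between 0.27 and 0.52 in each of the 5 bins up to 50 Mb and at most 0.054 in each bin beyond. Over the 469 tested protein-coding genes after the interval the medians were -0.24, -0.094 and -0.029 in CTC and -0.074, 0.21 and 0.30 in PT.

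**Figure D3:**
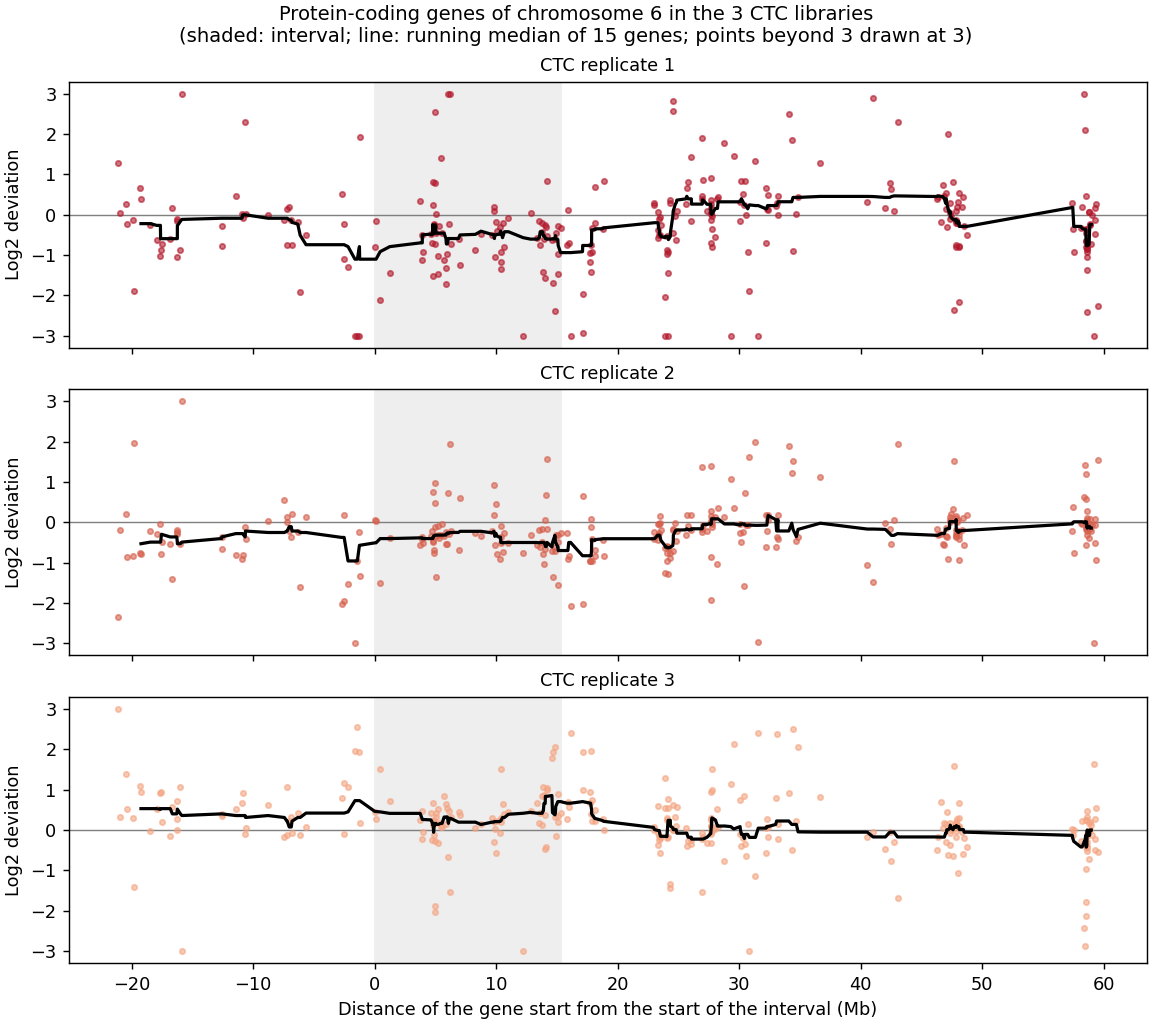
Each point is a tested protein-coding gene of chromosome 6 up to 60 Mb from the start of the interval, placed by the distance of its start from there in Mb (horizontal axis) and by its log2 CPM minus the mean of all 6 libraries (vertical axis, drawn at 3 or -3 where beyond), with 1 panel per CTC library. The line is a running median of 15 genes and the shading is the interval; in CTC replicates 1 and 2 the line is below 0 and in CTC replicate 3 above 0 at both shaded edges, and in CTC replicate 1 it is above 0 farther on, where the median was 0.26 between 50 and 60 Mb of the chromosome.

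Partner genes of members, coded outside the interval, had medians near 0 over all lists. Lists of 10 complexes and pathways to which members belong held 88 tested partner genes, with medians of 0.029, 0.029 and -0.11 in CTC replicates 1, 2 and 3 and between 0.022 and 0.068 in PT. In CTC replicate 1 Exoc4 deviated by -0.49 and the 8 other exocyst genes by a median of 0.49. Nup205 deviated by -0.80 and the 4 other nucleoporins of the inner ring by 0.11, Pot1a by -1.45 and the 6 other telomere genes by 0.15, and Cald1 by -0.41 and 11 actin genes by 0.50. Copg2 deviated by -0.73 and the 8 other COPI genes by -0.11, Atp6v1f by -0.72 and 14 genes of the proton pump by 0.16, and Chchd3 by -0.86 and 4 partners by -0.072. Akr1b3 deviated by 0.19 and 4 aldo-keto reductase genes elsewhere by -0.36. The partners of Braf are not reported here as a list. Smo deviated by -1.47, -0.10 and 0.51 in CTC replicates 1, 2 and 3 and by 0.38, 0.23 and 0.46 in PT. The medians of its 9 tested hedgehog partners were -0.94, 0.063 and 0.71 in CTC and 0.29, -0.15 and 0.086 in PT, so the signs were the same in 4 libraries and opposite in replicate 2 of both groups. Single hedgehog partners ranged from -5.37 to 0.86 in CTC replicate 1, where some had hardly any reads. Whether these partners vary with Smo was not tested. None of the hedgehog partners lies on chromosome 6, whereas some genes of the other lists do, outside the interval, among them Copg1, Exoc6b, Atp6v1e1, Chchd6 and Immt.

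**Figure D4:**
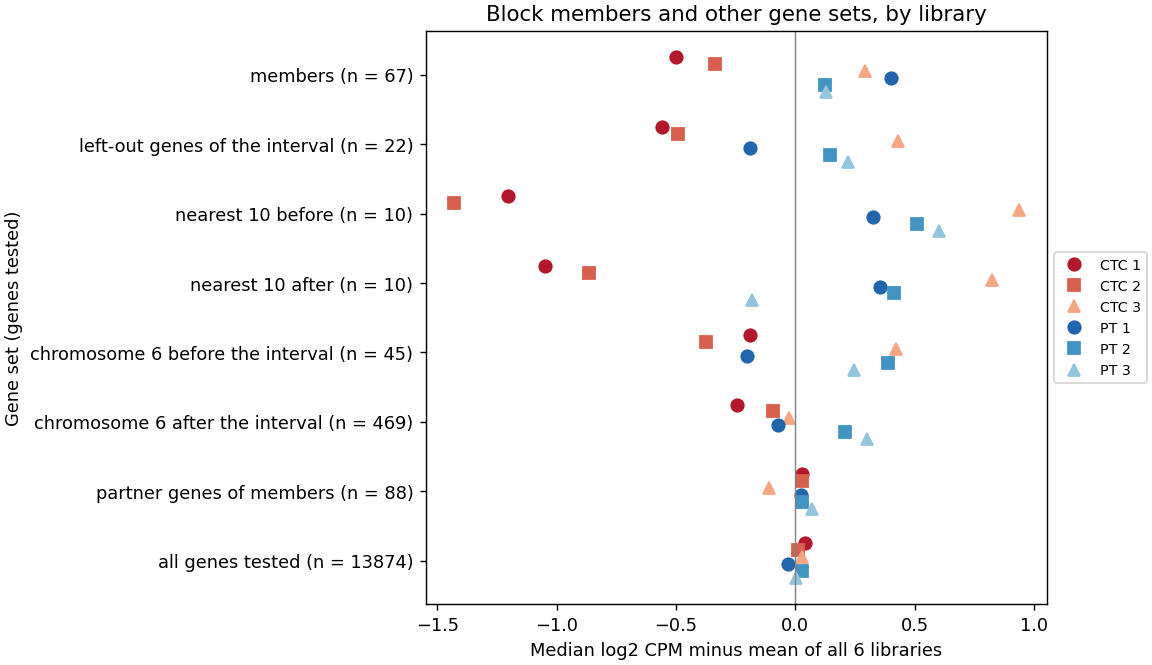
Points give the median of log2 CPM minus the mean of all 6 libraries (horizontal axis) for 8 sets of genes (vertical axis, with the number tested), 1 point per library. For the members, the left-out genes and both sets of nearest 10 genes CTC replicates 1 and 2 lie left of the other libraries, while partner genes and all genes tested lie within 0.11 of 0.

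Within the matched mice, the member median was lower in CTC than in PT for mice 1 and 2 and not for mouse 3. In mouse 1 the median difference, CTC minus PT, was -0.92 on the log2 scale with 58 of 67 members lower in CTC, against 47.3% of all genes. In mouse 2 it was -0.58 with 56 members lower (50.4% of all genes), and in mouse 3 it was 0.15 with 23 members lower (50.2%). The left-out genes of the interval gave -0.56, -0.43 and 0.15 in mice 1, 2 and 3. No test was made over the mice, because the members were picked from these libraries.

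**Figure D5:**
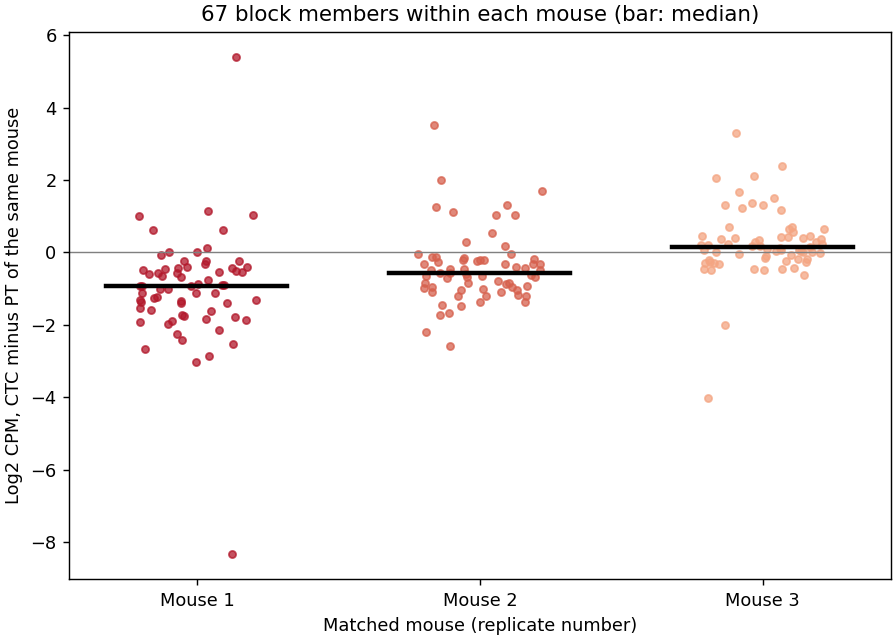
Each point is 1 of the 67 tested members, plotted as log2 CPM in the CTC library minus log2 CPM in the PT library of the same mouse (vertical axis) for the 3 mice (horizontal axis), and bars are medians. The bars lie at -0.92 and -0.58 in mice 1 and 2 and at 0.15 in mouse 3.

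No member passed the test between CTC and PT over all genes. The edgeR quasi-likelihood test called 0 of the 67 members (0% of all genes tested were called in either direction), and the lowest adjusted p among members was 0.726. It gave, at an unadjusted p under 0.05, 7 members lower in CTC (10.4%, against 3.31% of all genes) and 3 higher (4.48%, against 3.32%). The former were Arf5, Snd1, Atp6v1f, Tspan33, Akr1b10, Ptn and Fmc1 and the latter Cpa4, Clec2l and Fam71f2. Of the members, 55 had a negative log2 fold change (82.1%, against 45.9% of all genes), and their median was -0.35, against 0.053 over all genes. Elsewhere on chromosome 6, values were negative for 68.9% of the 45 tested protein-coding genes before the interval (median -0.24). After the interval they were negative for 69.5% of 469 (median -0.24). Lower values at an unadjusted edgeR p under 0.05 made up 2.22% of the genes before it and 8.74% of those after it. The member median was -0.76 without CTC replicate 3 and -0.22 without CTC replicate 1. All CTC libraries lay below all PT libraries for 6 members (8.96%, against 6.16% of all genes) and above them for 2, Clec2l and Fam71f2 (2.99%, against 5.95%). For protein-coding genes of chromosome 6 before and after the interval the shares below were 4.44% and 14.3%, and those above 0% and 1.71%. DESeq2 called 0 of the 68 members it tested, against 0.631% of all genes. Because the interval was picked from these same libraries, its choice favoured such signs and small p-values among members. The member shares are therefore a description only.

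By role, the log2 fold changes were mostly negative, without a call in any group. The groups are lists, with Fam71f1 and Cyren under transcription, chromatin and RNA, Clec2l under trafficking and Ccdc136 under genome maintenance and cilia. Values were negative for 11 of 12 tested trafficking members (median -0.42), 11 of 13 of transcription, chromatin and RNA (-0.26), 6 of 8 of metabolism (-0.51) and 7 of 10 of cytoskeleton and adhesion (-0.12). The same held for 4 of 4 of the ubiquitin pathway (-0.63), 4 of 5 of genome maintenance and cilia (-0.50), 3 of 3 of the nuclear pore (-0.39) and both signalling genes (-0.43). The largest of these differences among abundant members was that of Arf5, at 134 ± 40.7 CPM as the CTC mean and 309 ± 130.0 CPM as the PT mean (SD, n = 3 each), which is a difference on the log2 scale of -1.21 (SE 0.41, 95% interval -2.16 to -0.25); edgeR gave it an adjusted p of 0.726. For Snd1, at 407 ± 121 CPM as the CTC mean and 827 ± 324 CPM as the PT mean (SD, n = 3 each), the difference was -1.02 (SE 0.38, 95% interval -1.91 to -0.14) and edgeR's adjusted p was 0.726; without PT replicate 1 it was -0.69. The wide spread within CTC left Smo at -0.50 (SE 0.46, 95% interval -1.56 to 0.56) and Braf at -0.36 (SE 0.60, 95% interval -1.76 to 1.03), intervals that hold 0. Without CTC replicate 1 the value for Smo was -0.12 and without CTC replicate 3 it was -0.99. For Braf it was 0.043 without CTC replicate 2 and -1.16 without CTC replicate 3.

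The largest fitted differences, of Ptn and Cpa4, each rested on reads of few libraries. Ptn had the smallest unadjusted p of the block at 0.00975 (adjusted p = 0.726, edgeR), with a fitted log2 fold change of -6.37 that depends on the prior count, since 2 CTC libraries held 0 reads. It was -3.43 without PT replicate 1 and -10.9 without CTC replicate 2. Clec2l followed Arf5 in that order, with between 13 and 20 reads in each CTC library and at most 5 in each PT library. For Cpa4 the difference was 4.65 (SE 1.73, 95% interval 0.63 to 8.66) and edgeR's adjusted p was 0.726; with a replicate block for the matched mice DESeq2 called it (adjusted p = 0.00275, 1 of 65 members, against 1.87% of all genes). It rested on CTC replicate 1, without which the edgeR value was 1.33. When no filter was set, edgeR called 2 of 98 members, against 0.728% of all genes: Ptn (adjusted p = 0.00255) and Cpa4 (0.0135).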

How the data were processed

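RNA was measured in 3 CTC and 3 PT libraries. Whole-number counts of reads per Ensembl gene, not normalized, are what the authors deposited, in 1 table. The submitters' processing notes name HISAT2 and the builds GRCm38 and mm10; for the counter, its strand setting, the versions and the annotation, the sources used here give nothing. Coordinates and gene lengths (in bases) are as deposited. The members and gene lists were chosen with earlier results of these data known.

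The counts were scaled with TMM, and log2 CPM used a prior count of 2 (edgeR version 4.0.16, R version 4.3.3). The filterByExpr filter by group left 13874 genes, 12019 of them protein-coding. CTC and PT were compared with edgeR's quasi-likelihood test without a block, Benjamini-Hochberg adjustment over all genes tested and a threshold of 0.05; log2 fold changes are CTC minus PT. Scripts were tested on simulated counts. The labels call the replicates biological, from matched mice, and do not describe the cultures; p-values measure the spread between these samples. Any 2 libraries differed by a chi-square of at least 90.4 per degree of freedom, so each counts as 1 sample.

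The labels match PT to CTC libraries by number, so the numbers pair the samples. Across genes, deviations from the group mean correlated between matched libraries at -0.015 for mouse 1, 0.157 for mouse 2 and 0.298 for mouse 3. Alternatives were RLE and upper-quartile scaling, a prior count of 0.5, other filters, a gene length correction (lowess, span 0.4), DESeq2 (version 1.42.0), limma-voom (limma version 3.58.1), a replicate block, a narrower interval and leaving out each library. Named members followed a rule on role, level and deviation: up to 4 per role by level, 11 fixed genes, the 5 largest deviations and 5 of the other sign in CTC replicate 1, the edges and the 3 smallest p-values. Kdm7a was given in all 6 libraries outside this rule. A few genes of the marker and partner lists are not reported here by name.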

Additional observations from a re-analysis of the deposited data

How the results depend on the processing

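The member medians kept their sign in all 6 libraries under RLE and upper-quartile scaling, a prior count of 0.5, both other filters, a gene length correction and an interval narrowed by 1 Mb at each end. That of CTC replicate 1 ranged from -0.71 to -0.46 over these and a mean over members, and from -0.60 to -0.44 without each other library. For PT replicate 3 the mean over members was -0.017, and the median was -0.014 without CTC replicate 1. For the left-out genes, PT replicates 2 and 3 were at -0.077 and -0.13 without a filter on low counts, PT replicate 3 was at -0.16 with at least 1 CPM in 3 libraries, and PT replicate 1 ranged from -0.26 to 0.084 when each other library was left out. Genes after the interval were at -0.39 in CTC replicate 1 with the gene length correction. Partner genes in PT replicate 1 were at 0.067 with RLE and 0.055 with upper-quartile scaling. The cause of these shifts was not tested.

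The replicate block for matched mice in edgeR called 0 members, alone and with the gene length correction. DESeq2 with the block called 1 of 65 members (1.87% of all genes) and edgeR without a filter on low counts called 2 of 98 (0.728% of all genes); the other alternatives, limma-voom among them, called 0. The median log2 fold change of members was -0.46 with the block and ranged from -0.58 to -0.34 over the alternatives, and from -0.76 to -0.22 when each library was left out. When each library was left out, Braf ranged from -1.16 to 0.043, Hipk2 from -0.26 to 0.61 and Trim24 from -0.77 to 0.029. The filter leaves 37 members out of these values, and counts under about 3 per library set no level.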
